A study of Mus musculus with 32 samples.

Results

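The angiopoietin and Tie genes were followed in mouse liver tumours treated with regorafenib, with an antibody against VEGFR2 or with an antibody against PD1. The 5 genes were listed by name: the ligands Angpt1 and Angpt2, the receptors Tek (the gene of TIE2) and Tie1, and the receptor phosphatase Ptprb. They are 5 of 54446 genes in the count tables, and all 5 passed the filter on low counts in every experiment. The question was how this pathway behaved at the RNA level under regorafenib, a kinase inhibitor given by mouth whose targets include both VEGFR2 and TIE2, compared with blocking VEGFR2 alone.

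All 32 tumours grew from BNL-MEA, a liver cancer cell line of the mouse, placed under the capsule of the left liver lobe of BALB/c mice. Tumours of the dose and DC-101 experiments were taken after 5 days of treatment, and the collection day of the anti-PD1 experiment is not given in the sources used here. In the dose experiment, 4 tumours received vehicle, 3 received 5 mg/kg/day of regorafenib, called the low dose, and 3 received 20 mg/kg/day, called the high dose. In the DC-101 experiment they received vehicle (n = 4), low dose regorafenib (n = 3) or DC-101 (n = 3), a VEGFR2 antibody injected into the abdomen at 800 ug on days 1, 3 and 5. In the anti-PD1 experiment they received vehicle, low dose regorafenib, anti-PD1 or the combination of low dose regorafenib with anti-PD1 (n = 3 each). The study gave anti-PD1 as repeated injections into the abdomen. The length of treatment could therefore differ between this experiment and the others, also for the low dose. The age of the tumour-bearing mice is not given in the sources used here, and the tumours of all groups came from 1 cell line. The study describes the libraries of the anti-PD1 experiment as separate tumours, while the labels tie no library to a mouse, so p-values measure the spread between these libraries.

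Angiopoietins set how tightly blood vessels are sealed. Angpt1, made mostly by cells around the vessel, activates TIE2 on endothelial cells and holds vessels stable, whereas Angpt2, stored and released by endothelial cells themselves, can oppose Angpt1 and loosens vessels during remodelling. Tie1 has no well-established ligand of its own and modulates TIE2 signalling, and the product of Ptprb, VE-PTP, removes phosphate from TIE2. Tumour vessels are known for high Angpt2, and several drugs that target VEGF also target this axis.

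Tek, the gene of the regorafenib target, lies on the plus strand of chromosome 4 (GRCm38, 94739289 to 94874976), and the 250 bases before its start (chr4:94739039-94739288) are shown because TIE2 is the member that regorafenib itself inhibits. Tie1 lies on the minus strand of the same chromosome (118471191 to 118490061), Angpt1 on the minus strand of chromosome 15 (42424723 to 42676977), Angpt2 on the minus strand of chromosome 8 (18690263 to 18741562) and Ptprb on the plus strand of chromosome 10 (116275523 to 116389535). The RefSeq promoter table (GRCm38.p6) held 2 of the 5 members, Tek and Tie1. Capitals mark the ETS 4-base core GGAA, read here as TTCC on the other strand:

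Tek promoter: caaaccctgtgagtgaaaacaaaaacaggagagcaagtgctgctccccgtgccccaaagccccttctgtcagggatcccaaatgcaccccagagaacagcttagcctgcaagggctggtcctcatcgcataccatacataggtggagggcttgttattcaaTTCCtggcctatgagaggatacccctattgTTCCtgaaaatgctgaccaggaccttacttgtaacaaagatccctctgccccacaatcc

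ETS factors regulate many endothelial genes. GGAA on either strand was present in 96.0% of 32851 promoters of 250 bases before to 50 after the start. The longer ETS core AGGAAG was found in 35.4% of promoters, at -219 and 34 relative to the Tie1 start and not in the Tek window. No match to the forkhead motif GTAAACA (3.6% of promoters), the hypoxia response core ACGTG (19.6%) or the AP-1 motif TGACTCA (5.2%) was found in either window; both strands were searched, and AGGAAG contains GGAA.

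Libraries held 16.8 to 27.7 M counts in all (M, the prefix mega), and each member had between 41 (Tek) and 3119 (Angpt1) counts in a library. The tumours differed widely in their content of liver genes: the mean log2 CPM (read counts after TMM scaling for library size, on the log2 scale) of 14 hepatocyte genes ranged from -0.08 to 12.36. The mean over 16 endothelial genes, in which Tek, Tie1 and the other members are not included, ranged from 2.66 to 5.15, so endothelial RNA was present in every library. In bulk tumour RNA, fewer endothelial cells and less RNA of a gene in each endothelial cell cannot be told apart.

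Corrected for exon length, Angpt1 was the most abundant member, at 2.78 to 29.1 CPM per kilobase (kb), and it stood above Tek, Tie1 and Ptprb in 31 of 32 libraries. The exception was high dose replicate 1, where Angpt1 was at its minimum. Tie1 (0.72 to 11.7 CPM per kb) was higher than Tek (0.385 to 5.31) in 32 of 32 libraries. Angpt2 (1.09 to 9.05) was above Tie1 in 16 libraries and below it in the other 16, and Tek was above Ptprb (0.306 to 5.88) in 15 of 32, so neither of these neighbours could be ordered. Reads of Angpt1 could not be separated with certainty from those of the antisense gene Gm17473 (at most 74 counts), since the strand setting of the counting is not given, and Angpt2 lies inside Mcph1 on the opposite strand.

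**Figure D1:**
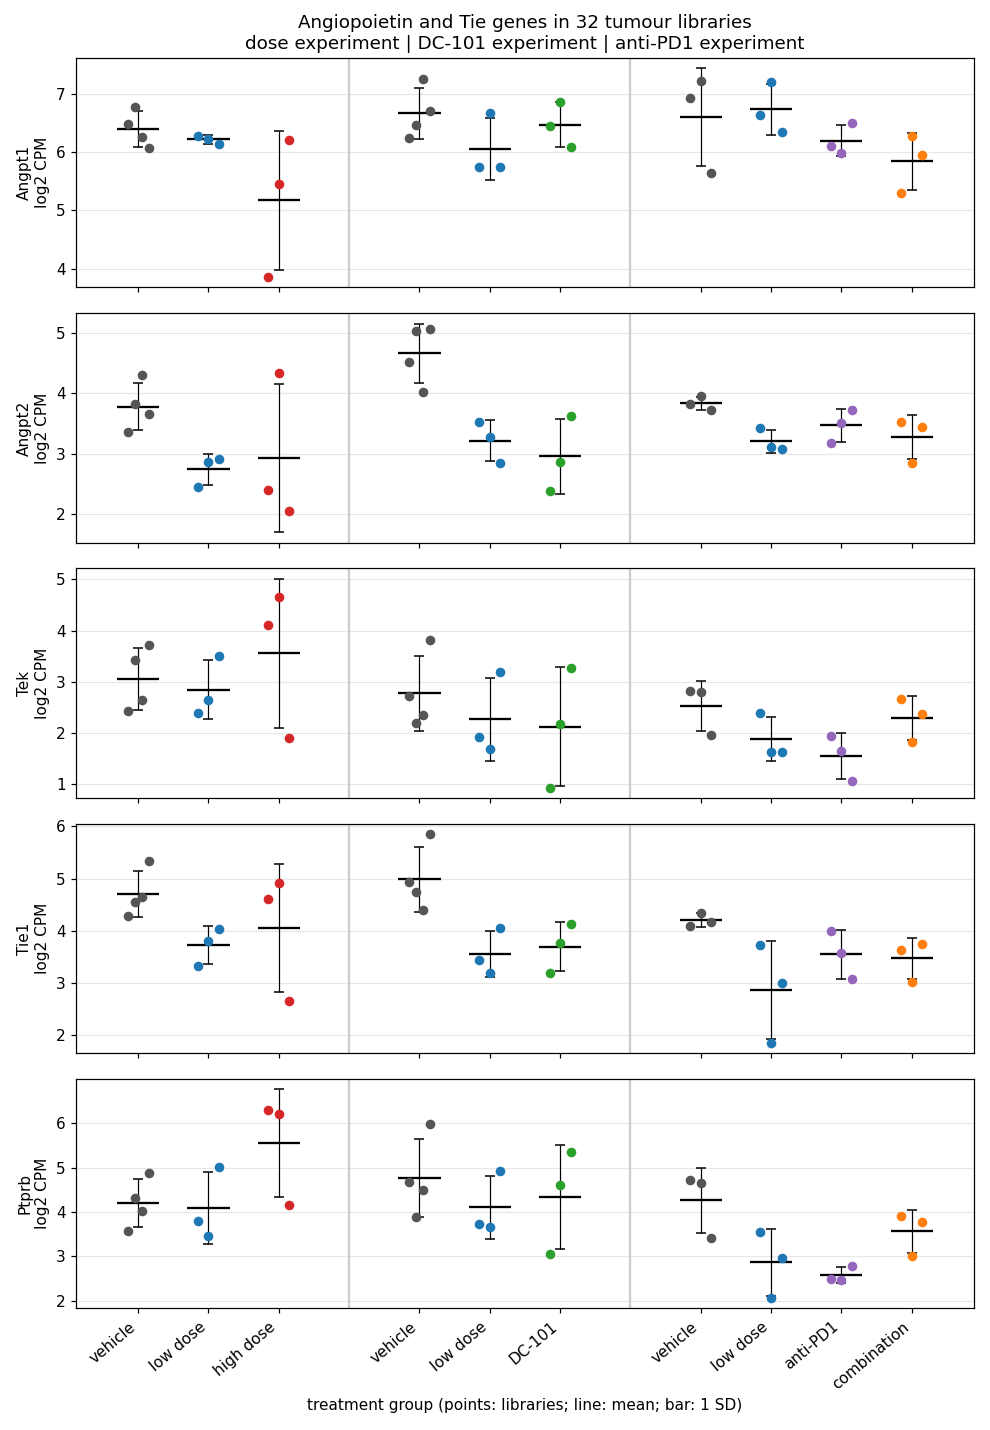
Log2 CPM (vertical axis) of the 5 members in each of 32 tumour libraries (points), grouped by treatment and separated by experiment, with the group mean (line) and 1 SD (bar). All 9 low dose libraries lie below every vehicle of their own experiment for Angpt2 and for Tie1. The share of all genes that separate in this way was not counted. Tek and Ptprb overlap with vehicle and spread widely under the high dose.

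Low dose regorafenib was compared with vehicle in each experiment and in 1 fit over the 3 experiments with the experiment as a term. Over the 3 experiments, Angpt2 and Tie1 fell, to 47.1% and 42.9% of vehicle. All 5 members had a change below 0, but Angpt1, Tek and Ptprb did not pass an adjusted p of 0.05. The 2 members called lower stand against 1.77% of 15562 genes called in either direction and 1.04% called lower.

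For the ligand Angpt2, vehicle libraries of the dose experiment had log2 CPM of 3.35, 3.82, 4.3 and 3.65, against 2.44, 2.86 and 2.91 at the low dose. In the DC-101 experiment, vehicles were at 4.53, 5.04, 4.03 and 5.07 and low dose libraries at 3.52, 3.28 and 2.84. In the anti-PD1 experiment, vehicles were at 3.82, 3.95 and 3.73 and low dose libraries at 3.42, 3.10 and 3.08. The groups did not overlap in any of the 3 experiments. The share of all genes that separate in this way was not counted, here or for the separations given below. With so few libraries per group, separation alone does not set a gene apart. The log2 change over the 3 experiments was -1.09 (SE 0.18, adjusted p = 0.0026).

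Angpt1, the stabilising ligand, overlapped with vehicle in all 3 experiments. The dose experiment had vehicles of 6.07 to 6.77 and low dose libraries of 6.14 to 6.28. The DC-101 experiment had 6.24 to 7.25 and 5.74 to 6.67, and the anti-PD1 experiment 5.64 to 7.22 and 6.35 to 7.20. Low dose libraries were below the mean of their own vehicles in 6 of 9 cases, and the log2 change of -0.26 (95% interval -0.65 to 0.13; adjusted p = 0.565) did not pass.

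The ratio of Angpt2 to Angpt1 was lower in 9 of 9 low dose libraries than in the mean of their own vehicles. The mean log2 ratio was -3.28 ± 0.53 (SD) at the low dose and -2.43 ± 0.72 in vehicle. Averaged within experiments the difference was -0.83 (two-sided exact permutation p = 0.00682 over 24500 arrangements, adjusted p = 0.109 over 16 ratio tests), which missed the threshold after adjustment. The ratio of Angpt2 to Tek differed by -0.59 (exact permutation p = 0.0551, adjusted p = 0.229).

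Tie1, the co-receptor, was at 4.28, 4.56, 4.65 and 5.33 in vehicles of the dose experiment and at 3.33, 3.80 and 4.04 at the low dose. In the DC-101 experiment it was at 4.94, 4.75, 4.40 and 5.85 in vehicle and at 3.45, 3.19 and 4.05 at the low dose. In the anti-PD1 experiment it was at 4.10, 4.35 and 4.17 in vehicle and at 3.73, 1.86 and 3.01 at the low dose. Again no low dose library reached its vehicles, although replicate 2 of the anti-PD1 experiment was far below the other low dose libraries. The log2 change was -1.22 (SE 0.23, adjusted p = 0.00887).

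Tek, the TIE2 receptor, overlapped with vehicle throughout. Low dose libraries were at 2.39, 2.65 and 3.5 in the dose experiment against vehicles from 2.43 to 3.72, at 1.91, 1.69 and 3.19 in the DC-101 experiment against 2.20 to 3.82, and at 2.38, 1.63 and 1.63 in the anti-PD1 experiment against 1.95 to 2.81. The log2 change was -0.45 (95% interval -0.98 to 0.08, adjusted p = 0.44), with 7 of 9 low dose libraries below their vehicle mean.

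Ptprb, the TIE2 phosphatase, overlapped between low dose and vehicle in each of the 3 experiments. Its low dose libraries were at 3.80, 3.46 and 5.01 in the dose experiment (vehicle 3.57 to 4.88), at 3.72, 3.67 and 4.92 in the DC-101 experiment (vehicle 3.88 to 5.99) and at 3.55, 2.06 and 2.97 in the anti-PD1 experiment (vehicle 3.41 to 4.71). The log2 change over the 3 experiments was -0.69 (95% interval -1.34 to -0.04, adjusted p = 0.32). Its unadjusted p in edgeR was 0.0523, so the interval, built from a normal quantile, is too narrow here. Low dose replicate 3 in the dose and DC-101 experiments was the highest of its group for both Tek and Ptprb, and these 2 libraries also had the highest hepatocyte scores of their groups (10.01 and 9.14). With the hepatocyte score as a covariate, Tek changed by -0.50 (adjusted p = 0.463) and Ptprb by -0.79 (adjusted p = 0.306).

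Taken experiment by experiment, no member passed the threshold for low dose against vehicle in edgeR. In the dose experiment 0 of 16525 genes were called (0%, with 817 at an unadjusted p under 0.05 in edgeR), in the DC-101 experiment 4 of 16138 (0.0248%, with 2766 unadjusted) and in the anti-PD1 experiment 0 of 16615 (0%, with 1964 unadjusted). The change of Angpt2 was -1.08, -1.50 and -0.63 in the 3 experiments and that of Tie1 was -1.01, -1.49 and -1.16. In the DC-101 experiment their unadjusted p in edgeR was 0.00227 for Angpt2 and 0.00396 for Tie1, and DESeq2 called both there (adjusted p = 0.0029 and 0.00696) among 1097 genes in all. A test of whether the low dose change differed between experiments called 0 of 15562 genes (0%, with 1481 unadjusted), and the smallest unadjusted p of a member was 0.11, for Angpt2.

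The 2 calls needed the dose and the DC-101 experiments. Without the dose experiment Angpt2 changed by -1.10 with an adjusted p of 0.0713 and Tie1 by -1.34 with 0.108, and without the DC-101 experiment the values were -0.87 with 0.0807 and -1.08 with 0.138. Calls over all genes fell from 276 to 63 and to 17 in these fits. Leaving out any single library kept both calls.

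**Figure D2:**
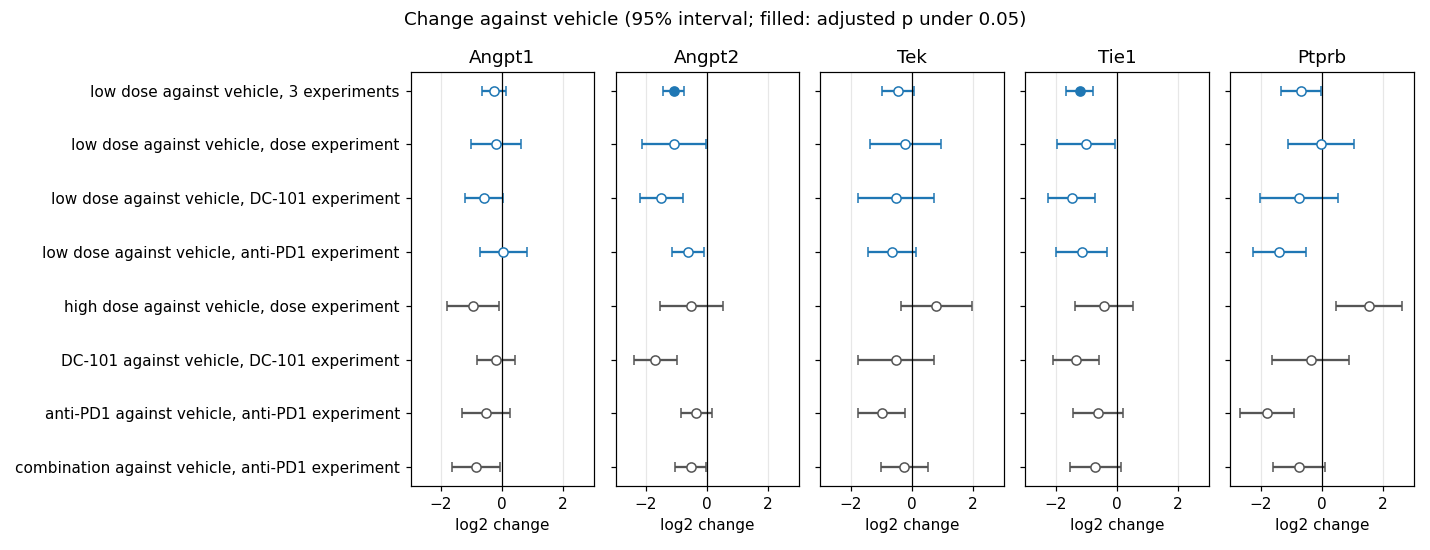
Log2 change of each member (horizontal axis) against the vehicle of its own experiment for 8 comparisons (rows), with 95% intervals from a normal quantile. These are narrow for so few libraries. Blue marks low dose regorafenib and filled points an adjusted p under 0.05. Only Angpt2 (-1.09) and Tie1 (-1.22) over the 3 experiments are filled, and Ptprb lies at 1.55 under the high dose and at -1.79 under anti-PD1.

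Of 27 further genes listed for angiopoietin-Tie signalling (ligands such as Angpt4, adaptors, downstream kinases and transcription factors, integrins and proteases), all 27 were tested over the 3 experiments, 1 was called lower and 0 higher, where 1.77% of all genes tested were called and 1.04% were called lower, and their median log2 change was -0.01 against 0.03 for all genes tested. The gene called was Nos3, the endothelial nitric oxide synthase, at -1.0 (SE 0.22, adjusted p = 0.0222). Dok2, an adaptor that binds activated TIE2 and is also expressed in blood cells, was at 1.26 (adjusted p = 0.0546) over the 3 experiments and was called higher in the DC-101 experiment alone (2.37, SE 0.25, adjusted p = 0.0229). Of the angiopoietin-like genes 6 of 7 were tested and none was called. The smallest p was that of Angptl2 (log2 change 0.31, adjusted p = 0.163).

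Most endothelial genes fell as well. Of the 16 genes of the endothelial list 10 were called lower and 0 higher, where 1.04% of all genes tested were called lower. The list median was -1.19, and the list was chosen with earlier results of these data known. The greatest falls were those of the transcription factors Sox17 (-1.74, SE 0.19, adjusted p = 9.82e-05) and Erg (-1.42, SE 0.25, adjusted p = 0.00433). The endothelial score was 3.95 to 4.78 in vehicle and 3.29 to 3.73 at the low dose in the dose experiment, 4.17 to 5.15 and 3.40 to 3.69 in the DC-101 experiment, and 4.10 to 4.49 and 2.89 to 3.67 in the anti-PD1 experiment. Of 10 mural genes tested 1 was called, Kcnj8, a channel gene of pericytes (-1.76, SE 0.30, adjusted p = 0.00385), with a list median of -0.67.

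Among lists of other cells, 0 of 7 fibroblast, 0 of 7 liver sinusoidal, 0 of 3 platelet and 0 of 14 hepatocyte genes were called, and 1 of 10 macrophage genes was called higher (Fcgr1, 0.73, adjusted p = 0.0405). All 14 hepatocyte genes were above 0, with a median of 1.47 against 0.03 for all genes tested. Their median was 1.71 in the dose experiment and 3.19 in the DC-101 experiment, with all 14 above 0 in both, and -1.89 in the anti-PD1 experiment, with all 14 below 0. The genes with the smallest p in the lists without a call were Pdgfra (log2 change -0.61, adjusted p = 0.15), Lyve1 (-1.71, adjusted p = 0.225), Pf4 (-1.10, adjusted p = 0.229) and Hpd (2.60, adjusted p = 0.303). With the hepatocyte score as a covariate, Angpt2 changed by -0.95 (adjusted p = 0.00557) and Tie1 by -1.15 (adjusted p = 0.0228).

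Members were then expressed relative to the endothelial score of the same library, which asks whether a gene changed more or less than endothelial genes as a group. Angpt2 differed by -0.06 (exact permutation p = 0.732) and Tie1 by -0.26 (exact permutation p = 0.0548), so neither was shown to depart from the list. Relative to the list, Tek was higher at the low dose in 9 of 9 libraries than in the mean of their vehicles, by 0.54 (exact permutation p = 0.00412, adjusted p = 0.165 over 40 tests). Angpt1 was higher in 8 of 9 by 0.77 (exact permutation p = 0.0104, adjusted p = 0.207), and Ptprb by 0.26 (exact permutation p = 0.297).

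None of the 40 relative tests passed after adjustment, and 5 had an unadjusted p under 0.05. Most of the 40 compared 3 with 4 or 3 with 3 libraries, where the smallest p an exact permutation can give is 0.0286 or 0.1. With the median of the endothelial genes in place of their mean, the Tek difference was 0.74 and its adjusted p 0.00653; with DC-101 experiment vehicle replicate 4 left out it was 0.59 with an adjusted p of 0.04. With DC-101 experiment vehicle replicate 3 left out, the Angpt1 difference was 0.88 with an adjusted p of 0.0229.

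**Figure D3:**
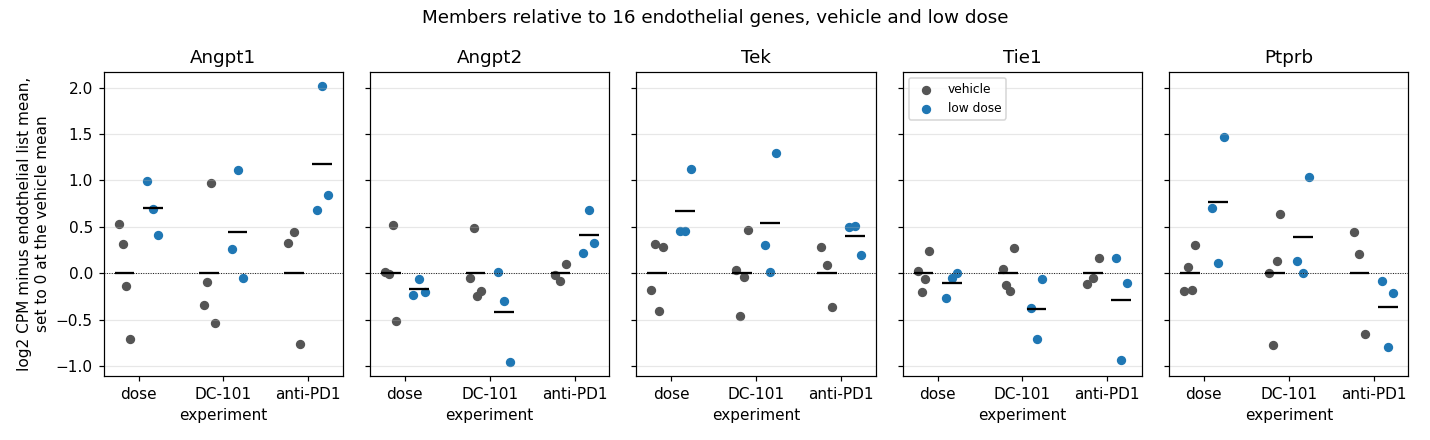
Log2 CPM of each member minus the mean of 16 endothelial genes in the same library (vertical axis), set to 0 at the vehicle mean of each experiment (horizontal axis), for vehicle (grey) and low dose (blue) libraries with group means as lines. All 9 low dose values of Tek lie above 0, replicate 2 of the DC-101 experiment only just, while those of Angpt2 lie on both sides.

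DC-101, directed at VEGFR2, was compared with vehicle and with the low dose. Angpt2 was at 2.38, 2.86 and 3.62 under DC-101, below all 4 vehicles, a log2 change of -1.70 (SE 0.36, adjusted p = 0.309). Tie1 was at 3.20, 3.76 and 4.14, also below all 4 vehicles, with a change of -1.35 (SE 0.39, adjusted p = 0.318). Neither passed in edgeR, where 0 of 16138 genes were called (0%) and 2131 had an unadjusted p under 0.05, Angpt2 (0.00106) and Tie1 (0.00681) among them; DESeq2 called both, with adjusted p of 0.00196 and 0.0377, among 373 genes in all. Of the endothelial list 14 of 16 genes were below 0 under DC-101, with a median of -1.15, and all 14 hepatocyte genes were above 0, with a median of 3.71. Hepatocyte scores were -0.08 to 6.78 in vehicle and 1.56 to 10 under DC-101. Adjusted for that score, Angpt2 was at -1.83 and Tie1 at -1.39 (adjusted p = 0.851 for both).

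Tek (0.93, 2.17 and 3.26) and Ptprb (3.06, 4.61 and 5.34) spread over more than 2 log2 units under DC-101, in the order of the hepatocyte scores of these libraries (1.56, 8.85 and 10). The part of liver tissue in this spread was not tested. Their changes were -0.52 (95% interval -1.77 to 0.72) and -0.37 (-1.63 to 0.88), or -1.19 and -0.98 adjusted for the hepatocyte score, and Angpt1 was at 6.45, 6.86 and 6.09 with a change of -0.21.

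Low dose regorafenib and DC-101, set against each other directly, gave 0 calls among 16138 genes (0%, with 1364 unadjusted). The differences of the low dose from DC-101 were 0.20 for Angpt2 (95% interval -0.52 to 0.92), -0.14 for Tie1 (-0.93 to 0.64), 0.01 for Tek (-1.31 to 1.33), -0.38 for Ptprb (-1.72 to 0.95) and -0.38 for Angpt1 (-1.04 to 0.29). The interval was widest for Ptprb and Tek and narrowest for Angpt1 and Angpt2.

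Relative to the endothelial score, Angpt2 was lower under DC-101 in 3 of 3 libraries, by 0.78 on the log2 scale (exact permutation p = 0.0286, the smallest that 4 and 3 libraries can give; adjusted p = 0.229). The endothelial score itself was 3.12 to 4.13 under DC-101. The same difference for the low dose in this experiment was -0.41 (exact permutation p = 0.343); both share the vehicle libraries.

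High dose regorafenib libraries differed widely among themselves. Ptprb was at 6.29 and 6.21 in replicates 1 and 2, above all vehicles, and at 4.16 in replicate 3. Tek likewise was at 4.11, 4.65 and 1.90. Replicates 1 and 2 were above, and replicate 3 below, all vehicles for Tek.

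These 2 libraries also had the most liver RNA of the dose experiment apart from 1 low dose library: hepatocyte scores were 12.36 and 9.65, against 6.75 in replicate 3 and 4.50 to 7.81 in vehicle. Liver sinusoidal scores followed the same order, at 4.97, 3.74 and 0.99, and the TMM factor of replicate 1 was 0.678, the lowest of all libraries. With the hepatocyte score as a covariate, Ptprb changed by 0.15 (adjusted p = 0.841) and Tek by -0.44 (adjusted p = 0.706), where the sign of Tek turned. In the same fit Tie1 was at -1.34 (SE 0.48, adjusted p = 0.197), Angpt2 at -0.71 (adjusted p = 0.634) and Angpt1 at -0.46 (adjusted p = 0.551). Replicates 1 and 2 had hepatocyte scores above every vehicle, so liver content and dose cannot be told apart here. The part of liver tissue in these changes was not tested.

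Without the covariate, the high dose changes were 1.55 for Ptprb (SE 0.55, adjusted p = 0.0712), 0.80 for Tek (SE 0.59, adjusted p = 0.334), -0.96 for Angpt1 (SE 0.43, adjusted p = 0.13), -0.52 for Angpt2 (SE 0.52, adjusted p = 0.479) and -0.42 for Tie1 (SE 0.48, adjusted p = 0.53). No member was called, against 15.6% of 16525 genes. Angpt1 was at 3.86, 5.46 and 6.20, lowest in the library with the most liver RNA, and Angpt2 at 2.4, 4.34 and 2.04.

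Single high dose libraries decided these calls. Without replicate 3, Ptprb changed by 1.93 (adjusted p = 0.0132) and Angpt1 by -1.57 (adjusted p = 0.0201), in a fit that called 7030 genes in all against 2582 with every library. Without replicate 2, Angpt2 changed by -1.59 (adjusted p = 0.0421) and 537 genes were called. DESeq2 on all libraries called Ptprb (1.58, adjusted p = 0.0215) among 5275 genes. Tek was at 0.25 without replicate 2 and at 1.23 (adjusted p = 0.0501) without replicate 3, and Tie1 at -0.82 and -0.03. Without replicate 1, Angpt2 was at -0.23 and Angpt1 at -0.52. Relative to the endothelial score, Ptprb was higher by 2.07 and Tek by 1.21, each in 3 of 3 libraries (exact permutation p = 0.0286 for both, the smallest possible; adjusted p = 0.229).

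Against the low dose, the high dose differed by 1.58 for Ptprb (SE 0.60, adjusted p = 0.133), 1.02 for Tek (SE 0.64, adjusted p = 0.292), 0.59 for Tie1, 0.56 for Angpt2 and -0.76 for Angpt1. No member was called, while 4.22% of all genes were. Without high dose replicate 3, Ptprb was at 1.95 (adjusted p = 0.0294) and Angpt1 at -1.37 (adjusted p = 0.0474), in a fit that called 4488 genes in all. Without replicate 1, Angpt1 was at -0.32. Tek was at 0.45 without replicate 2 and at 1.45 without replicate 3, and Tie1 at 0.17 and 0.98. In the wider pathway Svep1, a matrix protein known to bind Tie1, rose at the high dose (3.38, SE 0.89, adjusted p = 0.0437), as did Foxo1, a transcription factor restrained by TIE2 signalling through Akt (0.55, SE 0.11, adjusted p = 0.0311), and Adam17, a protease that sheds membrane proteins, fell (-0.71, SE 0.15, adjusted p = 0.0324). These were 3 of 27 genes called against vehicle, where 15.6% of all genes tested were called.

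Of 16 endothelial genes 2 were called lower at the high dose, Emcn (-1.86, adjusted p = 0.0365) and Icam2 (-1.69, adjusted p = 0.0499), with a list median of -0.40. At this dose 6.82% of all genes tested were called lower and 8.80% higher, so a count of 2 of 16 lies close to the background, as do the mural and hepatocyte counts here. Of the 10 mural genes tested 1 was called higher, Rgs5 (2.37, adjusted p = 0.0399). Of the hepatocyte list 2 of 14 were called higher, with all 14 above 0 and a median of 3.97, and 8 of 10 macrophage genes were called lower.

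Under anti-PD1 alone, the greatest change of a member was that of Ptprb. The 3 anti-PD1 libraries were at 2.49, 2.46 and 2.79, below vehicles at 4.71, 4.66 and 3.41, a log2 change of -1.79 (SE 0.45, adjusted p = 0.249). Tek was at 1.94, 1.65 and 1.05, below vehicles at 2.81, 2.79 and 1.95, with a change of -1.0 (SE 0.40, adjusted p = 0.31). Neither passed in edgeR, where 0 of 16615 genes were called (0%, 2269 unadjusted, with Ptprb at 0.00191 and Tek at 0.0286), and DESeq2 called Ptprb (adjusted p = 0.0102) among 614 genes in all.

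Tie1 (4.0, 3.58 and 3.07) and Angpt2 (3.17, 3.51 and 3.72) were also below all vehicles under anti-PD1, with smaller changes of -0.61 and -0.35. For Angpt2 the lowest vehicle was at 3.73, so the groups all but touched. Angpt1 (6.11, 5.98 and 6.49) overlapped with vehicle. Liver content differed here too: hepatocyte scores were 4.27 to 5.95 under anti-PD1 and 8.15 to 8.73 in vehicle, liver sinusoidal scores 1.38 to 3.18 and 4.05 to 4.69, and the endothelial score 3.72 to 3.89 and 4.10 to 4.49. With the hepatocyte score as a covariate, Ptprb changed by -1.76 (adjusted p = 0.724) and Tek by -0.82 (adjusted p = 0.736), while Tie1 was at -0.83 (adjusted p = 0.741), Angpt2 at -0.07 (adjusted p = 0.966) and Angpt1 at -0.65 (adjusted p = 0.761).

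In the combination, no member differed from vehicle by more than 1 log2 unit. Changes were -0.85 for Angpt1 (SE 0.40), -0.76 for Ptprb (SE 0.43), -0.71 for Tie1 (SE 0.42), -0.54 for Angpt2 (SE 0.26) and -0.25 for Tek (SE 0.39), with adjusted p from 0.617 to 0.884, and 0 of 16615 genes were called (0%, 1362 unadjusted). Angpt2 (3.52, 2.85 and 3.44) and Tie1 (3.64, 3.03 and 3.75) were below all vehicles.

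Compared with anti-PD1 alone, the combination had Ptprb at 3.91, 3.01 and 3.77, above all 3 anti-PD1 libraries, with a change of 1.03 (SE 0.44, adjusted p = 0.542). Tek was at 2.67, 1.82 and 2.37, a change of 0.75 (SE 0.40, adjusted p = 0.641). Again 0 of 16615 genes were called (0%, 1443 unadjusted), and the hepatocyte scores of the combination were 6.32 to 9.60.

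Across all 32 libraries, the members fell into a pattern by which genes they most resembled, measured as Pearson's r of log2 CPM deviations from the experiment mean among 15429 genes. Tek and Ptprb were the closest pair (r = 0.89): Ptprb ranked first of 15428 genes for Tek, and Tek ranked 2 for Ptprb after Prex2 (0.90). The other genes most like Tek were Prex2 (0.87) and Gimap6 (0.86), and Vwf (0.88), the von Willebrand factor of endothelial cells, was next for Ptprb.

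Tie1 was most like Robo4 (0.94), Plekhg1 (0.93) and Erg (0.92), and Angpt2 was most like Pecam1 (0.89), Esam (0.86) and Adgrf5 (0.86), all genes of endothelial cells or known to be expressed there. Between members, r was 0.75 for Angpt2 and Tie1, 0.72 for Tek and Tie1, 0.63 for Ptprb and Tie1, 0.46 for Angpt2 and Tek, and 0.33 for Angpt2 and Ptprb. Angpt1 stood apart, with r of 0.18 to Angpt2, -0.13 to Tie1, -0.28 to Tek and -0.31 to Ptprb, and its nearest genes were Ifi213 (0.90), Wls (0.89) and Aida (0.87). The points share treatment groups, liver content and the library total, so these values describe the libraries and carry no test.

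**Figure D4:**
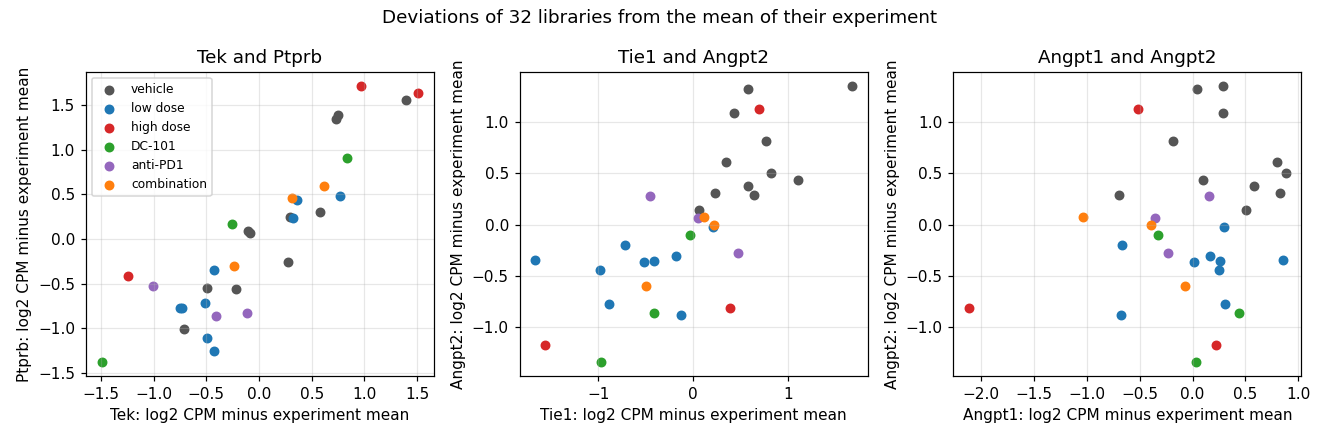
Deviation of each of 32 libraries from the mean of its experiment in log2 CPM for 3 pairs of members, coloured by treatment. Tek and Ptprb follow a narrow line (r = 0.89), Tie1 and Angpt2 a wider one (r = 0.75), and Angpt1 and Angpt2 show little relation (r = 0.18).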

How the data were processed

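Counts per gene were deposited by the authors as raw read counts in 3 tables, 1 per experiment, made per the labels with cutadapt 2.4 and STAR 2.7.2a on GRCm38 with Gencode genes; the strand setting is not given in the sources used here. Of 54446 gene identifiers 54409 (99.93%) matched the annotation. Library totals were 16.8 to 27.7 M, and Tek had at least 41 counts in each library.

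The members and gene lists were chosen with earlier results of these data known. Groups came from the labels. The groups of 1 experiment shared a fit in edgeR 4.0.16 (R 4.3.3; filterByExpr with a minimum count of 10 and minimum total of 15, TMM scaling, robust quasi-likelihood test, two-sided), with Benjamini-Hochberg adjustment over all genes and a threshold of 0.05. Log2 CPM used a prior count of 2. Member levels relative to the endothelial score and ratios used exact permutation within experiments, adjusted over 40 and 16 tests. Exon length was the union of Gencode exons.

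Beyond the 5 members, each list contributed up to 2 rises and 2 falls past the threshold with the greatest change, or the gene with the smallest p where none passed; Angpt4 is mentioned only as a list member. The angiopoietin-like list at the high dose is not reported here. Libraries of a group differed by more than counting noise (chi-square per degree of freedom 12.9 to 834 over 36 pairs). Alternatives included DESeq2 1.42.0, limma 3.58.1 voom, other scalings and filters, a hepatocyte covariate, a replicate block and leaving out each library. Fits were tested on simulated data.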

Additional observations from a re-analysis of the deposited data

Results flagged for a closer look

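The ratio of Angpt2 to Angpt1 in vehicle libraries of the DC-101 experiment had 1 library far from the rest. Replicates 1, 2 and 4 had log2 ratios of -1.70, -1.41 and -1.65 and replicate 3 had -3.21, a gap of 0.839 of the whole range of the group. Of 24 sets of 4 values checked this way 1 stood out. Chance alone marks about 1 in 20 independent sets, and these came from the vehicle libraries of 2 experiments and are not independent. Replicate 3 had the highest Angpt1 (7.25) and the lowest Angpt2 (4.03) of these vehicles, and a hepatocyte score of 6.78 against -0.08 to 3.01 in the others. Without it, the low dose difference in the ratio over the 3 experiments was -0.96 with an adjusted permutation p of 0.0103.

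Relative to the endothelial score, the low dose went in opposite directions between experiments for 2 members, and the difference between experiments was not tested on this scale. Angpt2 was above its vehicle mean in 3 of 3 low dose libraries of the anti-PD1 experiment, by 0.41, and below it in 3 of 3 of the dose experiment, by -0.17. Ptprb was above its vehicle mean in 3 of 3 low dose libraries of the dose experiment, by 0.77, and of the DC-101 experiment, by 0.39, where replicate 2 was at the vehicle mean to 2 decimals, and below it in 3 of 3 of the anti-PD1 experiment, by -0.36. Before this scaling, the log2 changes of Ptprb were -0.03 in the dose experiment, -0.76 in that with DC-101 and -1.40 in that with anti-PD1.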

How the results depend on the processing

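Over the 3 experiments, the 2 members called at the low dose were 2 under every other test, scaling, filter and covariate and in all 20 fits without 1 library, and 0 without the dose or without the DC-101 experiment, each with fewer libraries, where calls over all genes fell from 276 to 63 and 17. With the replicate block, Angpt2 changed by -1.02 (adjusted p = 0.00796) and Tie1 by -1.08 (adjusted p = 0.0372), and it changed no other call; the numbers were not treated as pairs, since same-number deviations correlated above 0.1 in 2 of 9, 4 of 9 and 6 of 18 pairs. When sets chosen after seeing the data were left out, DC-101 experiment vehicles 1 and 4 (hepatocyte score near 0) and anti-PD1 experiment vehicle 3 with low dose 2, 2 calls were left each time. DESeq2 called 1 member for high dose against vehicle and against low dose (Ptprb in both), 2 in the DC-101 experiment for the low dose and for DC-101 (Angpt2 and Tie1 in both) and 1 for anti-PD1 (Ptprb), where edgeR called 0; over all genes DESeq2 called 5275, 3059, 1097, 373 and 614 in these 5 fits. Without 1 library, the count for the high dose was 0 to 2 against vehicle (1 without high dose replicate 2, 2 without replicate 3) and 0 to 2 against low dose, with 537 to 7030 and 573 to 4488 genes called in all when a high dose library was left out, and that of relative tests passed was 0 to 1, as for ratios. The median of the endothelial list gave 1 relative test passed, that of Tek. The cause was not tested.

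Changes of sign concerned values that had not passed. They were, with the hepatocyte covariate, Angpt1 at 0.09 (low dose, dose experiment), Tek at -0.44 (high dose), Tie1 at -0.08 (high against low dose) and 0.07 (combination against anti-PD1) and Angpt1 at -0.04 (low dose, anti-PD1 experiment), where a minimum of 10 counts in every library gave -0.01. With the replicate block, Tek was at 0.16 and Ptprb at 0.26 (low dose, dose experiment) and Ptprb at 0.02 (DC-101). With no filter, Ptprb was at 0.01 (low dose, dose experiment) and Tek at -0.01 (low dose against DC-101). Without DC-101 experiment vehicles 1 and 4, Tek was at 0.15 (low dose) and 0.14 (DC-101) and Ptprb at 0.39 (DC-101). Angpt2 relative to the endothelial median was at 0.14. Without 1 library, the low dose change in the dose experiment ranged from -0.61 to 0.03 for Tek and from -0.62 to 0.28 for Ptprb, Angpt2 at high against low dose from -0.53 to 0.92, and under DC-101 Angpt1 from -0.40 to 0.02 and Ptprb from -0.96 to 0.22. Low dose against DC-101 ranged from -0.08 to 0.60 for Angpt2, from -0.62 to 0.77 for Tek, from -0.43 to 0.10 for Tie1 and from -0.92 to 0.20 for Ptprb. Angpt1 at the low dose in the anti-PD1 experiment ranged from -0.31 to 0.36, Tie1 in the combination against anti-PD1 from -0.30 to 0.16, and Angpt2 relative to the endothelial list from -0.13 to 0.03. Tek had 41 counts in its lowest library, and how depth limits each member was not compared.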
